A study of Mus musculus with 7 samples.

Results

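The Hox genes were followed in 7 whole colon tumors of mice as a record of where along the gut a tumor lay. The members were the protein-coding genes whose symbols name a cluster letter from a to d and a paralog number, which gave 39 genes of the 43346 in the count table, with 11 in HoxA, 10 in HoxB, 9 in HoxC and 9 in HoxD. No measured value entered this rule, which was set with earlier results of these data known.

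Hox genes encode homeodomain transcription factors that give cells their position along the head-to-tail axis of the embryo, and the pattern persists in adult tissue. In mammals they lie in 4 clusters on different chromosomes, and their order along the chromosome matches the order in which they are used along the body, with low paralog numbers (anterior) used toward the head and high numbers (posterior) toward the tail. The hindgut, which forms the colon and rectum, is known for posterior genes such as Hoxa13, Hoxb13 and Hoxd13. Polycomb proteins hold unused clusters silent over long stretches of chromatin.

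The tumors came from wild-type recipients that had received bone marrow (BM) after lethal irradiation. The labels give these as C57BL6/J mice of 8 weeks, whereas the study's methods give a congenic CD45.1 strain and a younger age. In 3 tumors the graft was Dnmt3a+/+ and in 4 it was Dnmt3a+/Δ (Dnmt3a(+/-) in the labels), the model of clonal hematopoiesis, in which blood cells carry 1 lost copy of the DNA methyltransferase gene Dnmt3a. Donors of both groups carried Mx1-Cre, an interferon-driven recombinase, and received poly(I:C), so that both groups share these. To induce colitis-associated cancer, all recipients were injected once with azoxymethane (10 mg/kg) and then drank dextran sulfate sodium (3%) in 3 cycles. The genotype is that of the blood cells, whereas epithelium and other radioresistant cells were those of the wild-type host. Replicates 1 and 2 of each group carried the number of transplantation experiment 18 and the remaining 3 tumors that of experiment 8. The labels call the tumors separate biological replicates, but give neither the segment of colon nor the distance from the anus of any tumor.

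Estimated counts totalled 38472738 to 64314999 per tumor. Dnmt3a itself was at 20.2 to 24.3 counts per 1000000 of the scaled library (CPM) with Dnmt3a+/+ BM and 22.0 to 43.0 CPM with Dnmt3a+/Δ BM, so whole-tumor RNA did not check the graft genotype. Dnmt3a+/Δ replicate 2 stood apart. It lay at one end of the leading principal component, which held 42.9% of the variance, and was the lowest tumor in 25.3% and the highest in 24.7% of the 15810 genes tested. The colon epithelium markers were present in every tumor, with 10 of 10 above 3 counts and a summed level of 11350 to 39020 CPM. Markers of squamous or anal epithelium (Krt5, Krt14, Krt6a, Krt13, Trp63, Dsg3, Ivl and Sprr1b), which colon mucosa lacks, summed to 4539 to 25900 CPM in 6 tumors and to 262 CPM in Dnmt3a+/Δ replicate 2, where 3 of the 8 were at or under 3 counts (Trp63, Ivl and Sprr1b), Krt5 was at 0.0815 CPM, and Krt14, Krt6a, Krt13 and Dsg3 were at 149, 49.6, 46.7 and 16.6 CPM. Sprr1b was also at 0 in Dnmt3a+/Δ replicate 4, and Dsg3 was lower in Dnmt3a+/+ replicate 3 (15.1 CPM). Dnmt3a+/Δ replicate 2 also had the highest fibroblast (1014 against 163 to 364 CPM), endothelial (150 against 15.2 to 67.4 CPM) and leukocyte sums (175 against 35.8 to 98.6 CPM). Smooth muscle markers ran from 42.3 CPM in Dnmt3a+/+ replicate 3 to 1204 CPM. Urothelial markers summed to 8.57 to 11.0 CPM with Dnmt3a+/+ BM and to 5.12 to 6.275 CPM with Dnmt3a+/Δ BM. Enteric neuron and glia markers summed to 9.66 to 11.58 CPM with Dnmt3a+/+ BM and to 20.36 to 40.8 CPM with Dnmt3a+/Δ BM. In bulk tissue, fewer cells of a type and less RNA per cell cannot be told apart.

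Hox transcripts in these tumors were mostly posterior. To compare genes with each other, CPM values were divided by the exon length of each gene (CPM per kb). Paralogs 9 to 13 held 87.7 to 94.5% of the summed level of all 39 genes, paralogs 4 to 8 held 4.86 to 11.2% and paralogs 1 to 3 held 0.613 to 1.11%. The 4 genes of paralog group 13 alone held 63.3 to 76.5%. The posterior share averaged 92.2% ± 2.10 (SD, n = 3) with Dnmt3a+/+ BM and 90.2% ± 2.75 (SD, n = 4) with Dnmt3a+/Δ BM, and the ranges overlapped. This overlap depended on where the class was cut. With paralogs 10 to 13 alone, every Dnmt3a+/+ tumor lay above every Dnmt3a+/Δ tumor, and this was not tested.

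**Figure D1:**
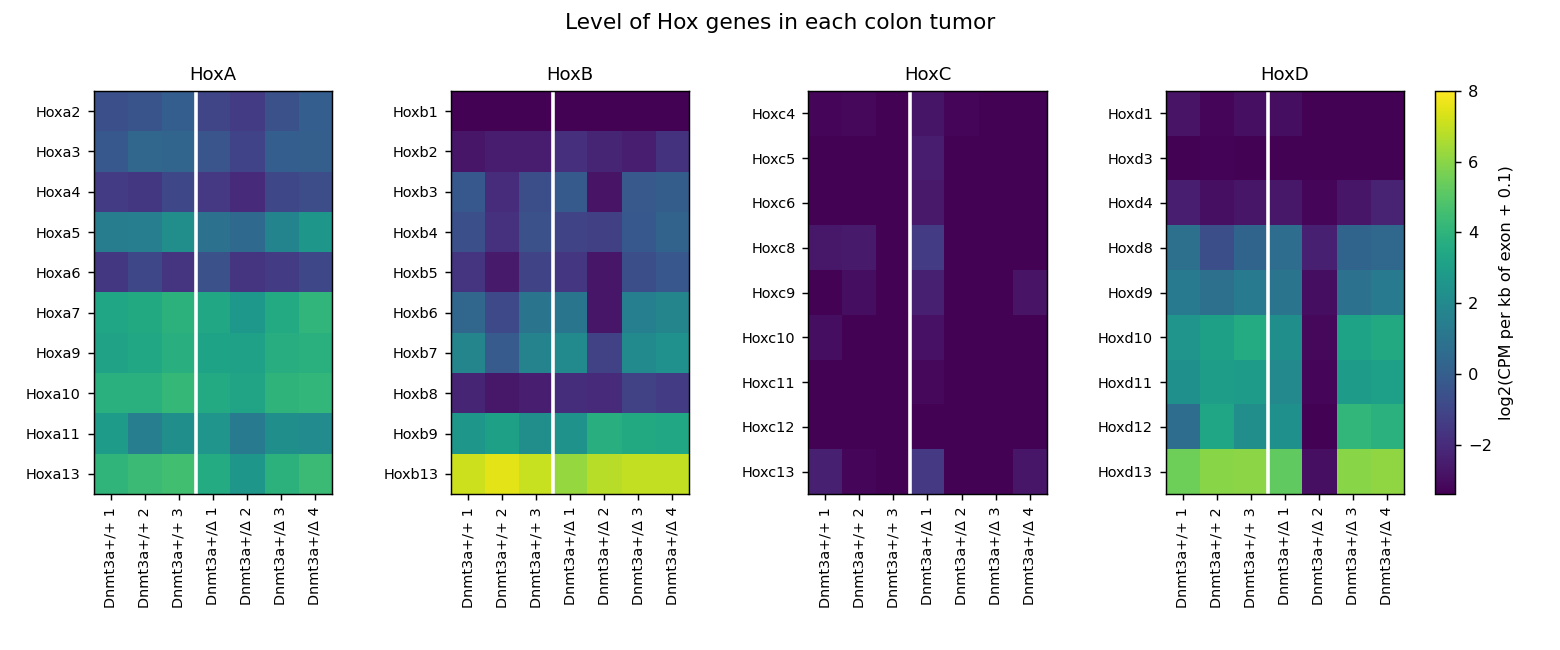
Heat map of the level of Hox genes (rows, by cluster and in paralog order) in each tumor (columns, with a white line between the 3 Dnmt3a+/+ and the 4 Dnmt3a+/Δ tumors), as log2(CPM per kb of exon + 0.1). Hoxb13 and Hoxd13 are brightest, HoxC is dark throughout, and the HoxD column of Dnmt3a+/Δ replicate 2 is dark.

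Of the 39 members, 29 reached 10 counts in at least 1 tumor and 14 did so in every tumor. Hoxb1 and Hoxc12 had no count in any tumor. The filter on low counts kept 26 members, namely all 11 HoxA genes, 9 of 10 HoxB genes, 6 of 9 HoxD genes and none of HoxC. The 13 members left out were Hoxb1, the 9 HoxC genes, Hoxd1, Hoxd3 and Hoxd4.

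Hoxb13, which marks the distal colon and the prostate, was the most abundant Hox gene in every tumor. Its level was 305, 406 and 287 CPM in Dnmt3a+/+ replicates 1 to 3 and 163, 240, 275 and 277 CPM in Dnmt3a+/Δ replicates 1 to 4. Every Dnmt3a+/Δ tumor was below every Dnmt3a+/+ tumor, with the lowest value in Dnmt3a+/Δ replicate 1. The means were 333 ± 64.4 (SD, n = 3) and 239 ± 53.2 CPM (SD, n = 4), and the log2 fold change of −0.48 (SE 0.23) did not pass the test (edgeR quasi-likelihood adjusted p = 0.489, exact permutation p = 0.0857, two-sided). The fold change was −0.80 within experiment 18 and −0.06, without a test, between the 3 tumors of experiment 8. Colon epithelium markers were lower with Dnmt3a+/Δ BM in 10 of 10 genes, with a median log2 fold change of −0.57 (−0.45 without Dnmt3a+/Δ replicate 2) and 0 called by edgeR or DESeq2, and their part in the levels of Hoxb13, Hoxa13 and Cdx1 was not tested.

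Hoxd13, which patterns digits and the terminal hindgut, came next in 6 tumors and was nearly absent from 1. It was at 110, 156 and 161 CPM with Dnmt3a+/+ BM and at 91.2, 0.0815, 156 and 169 CPM with Dnmt3a+/Δ BM. The low tumor was Dnmt3a+/Δ replicate 2, with 4 counts where the other 6 tumors had 3655 to 10015. The next lowest tumor was 1119-fold higher, with a 95% exact interval of 437 to 4110 that covers counting error only.

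Hoxa13, the HoxA gene of the terminal gut and genital region, was at 41.4, 51.0 and 58.4 CPM with Dnmt3a+/+ BM and at 30.0, 15.0, 37.8 and 50.2 CPM with Dnmt3a+/Δ BM. The groups overlapped, and the log2 fold change was −0.60 (SE 0.36, edgeR adjusted p = 0.573). Per length, the mean level over 7 tumors was 126 CPM per kb for Hoxb13, 48.5 for Hoxd13 and 16.4 for Hoxa13, and in each of the 6 tumors other than Dnmt3a+/Δ replicate 2 these genes stood in that order. Hoxc13, better known from hair and nail, had 8, 1 and 0 counts with Dnmt3a+/+ BM and 25, 0, 0 and 5 counts with Dnmt3a+/Δ BM.

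By cluster, HoxB carried the largest part of the summed level, 44.0 to 77.7%, most of it Hoxb13. HoxA carried 18.5 to 27.3% and HoxC at most 0.444%. HoxD carried 22.1 to 32.1% in 6 tumors and 0.109% in Dnmt3a+/Δ replicate 2. Posterior genes held 91.2 to 99.2% of the HoxB sum and 68.5 to 76.7% of the HoxA sum, so that HoxA was the cluster with the most transcript from paralogs below 9.

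**Figure D2:**
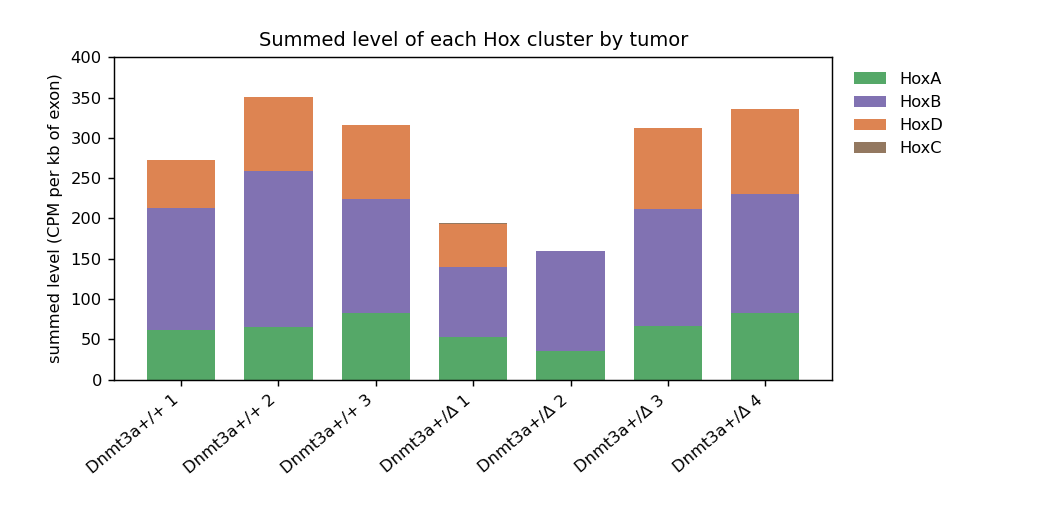
Stacked bars of the summed level (CPM per kb of exon, from 0) of the 4 Hox clusters in each of the 7 tumors. The HoxD segment reaches 53.5 to 106 CPM per kb in 6 tumors and is not visible in Dnmt3a+/Δ replicate 2 (0.174 CPM per kb), and HoxC (0 to 0.863 CPM per kb) is too small to see in any bar.

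HoxD was the cluster that differed most between tumors. Counts summed over its 9 genes were 5742, 14952 and 7610 with Dnmt3a+/+ BM and 5462, 22, 12605 and 9948 with Dnmt3a+/Δ BM. The 6 genes from Hoxd8 to Hoxd13 were present together in 6 tumors and near 0 together in Dnmt3a+/Δ replicate 2, where they had 12, 3, 1, 1, 0 and 4 counts in that order. Hoxd1, Hoxd3 and Hoxd4, the anterior end of the cluster, had 0 to 12 counts in every tumor and added little anywhere. On the same strand, Hoxd3 and Hoxd4 overlap each other and Gm28230, and Hoxd10 and Hoxd11 overlap Gm28309. This makes the split of reads between these genes uncertain. Hoxd8, Hoxd9, Hoxd12 and Hoxd13 overlap no gene on their own strand.

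The 9 HoxD genes lie at chr2:74668310-74765142 (GRCm38), 96.8 kb in which Hoxd13 comes first and Hoxd1 last, all on the plus strand. The 250 bases before the start of 3 genes at its posterior end, and of Hoxa13 for comparison, are shown. Cytosines that precede guanine (CG), the sites that Dnmt3a methylates, are in capitals, read on the plus or minus strand as the gene lies. All are from RefSeq with the build GRCm38.p6. Hoxd13 (chr2:74667975-74668224, plus strand), Hoxd12 (chr2:74674763-74675012, plus strand), Hoxd9 (chr2:74697513-74697762, plus strand) and Hoxa13 (chr6:52260881-52261130, minus strand) read as follows.
Hoxd13: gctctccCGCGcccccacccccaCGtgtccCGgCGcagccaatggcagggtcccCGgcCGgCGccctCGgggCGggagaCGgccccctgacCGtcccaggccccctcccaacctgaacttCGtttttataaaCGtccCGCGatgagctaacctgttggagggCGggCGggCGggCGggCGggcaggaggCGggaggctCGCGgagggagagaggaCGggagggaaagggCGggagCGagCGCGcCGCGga
Hoxd12: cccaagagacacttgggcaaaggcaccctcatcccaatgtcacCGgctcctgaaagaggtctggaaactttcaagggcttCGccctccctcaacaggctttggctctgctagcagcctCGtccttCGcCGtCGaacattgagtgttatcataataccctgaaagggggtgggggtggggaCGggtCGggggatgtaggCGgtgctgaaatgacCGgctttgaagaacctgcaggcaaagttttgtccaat
Hoxd9: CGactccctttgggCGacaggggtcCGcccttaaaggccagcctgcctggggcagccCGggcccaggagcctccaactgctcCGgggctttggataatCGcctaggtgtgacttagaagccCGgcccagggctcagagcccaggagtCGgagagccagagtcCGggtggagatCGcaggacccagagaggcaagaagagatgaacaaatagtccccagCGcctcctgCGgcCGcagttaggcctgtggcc
Hoxa13: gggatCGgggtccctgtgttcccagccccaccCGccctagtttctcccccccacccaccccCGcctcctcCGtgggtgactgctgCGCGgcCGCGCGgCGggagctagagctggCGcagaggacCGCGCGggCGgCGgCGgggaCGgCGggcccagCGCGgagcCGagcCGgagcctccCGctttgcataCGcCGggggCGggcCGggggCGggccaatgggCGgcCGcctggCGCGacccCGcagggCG
The Hoxd13 window holds 31 CG and the Hoxa13 window 35, a number that 5.2% and 3.0% of the 32851 mouse promoter windows of the same length reach. Hoxd9 holds 13 and Hoxd12 holds 10, reached by 31.5% and 37.8% of windows. The HoxD windows not shown held from 2 (Hoxd11, whose other window holds 20) to 24 (Hoxd1), with 6 for Hoxd8. Such a window was given for 22 members, among them all 9 of HoxD, and the 24 windows of these members had a median of 12.5 CG against 6 over all windows, 92.1% of which hold at least 1. CG is its own reverse complement, so the count is the same on both strands. The lost copy of Dnmt3a was in blood cells only, and methylation was not measured in these tumors.

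Hoxd12 varied most among the other 6 tumors. It was at 3.79, 24.5 and 11.8 CPM with Dnmt3a+/+ BM and at 12.3, 0, 45.4 and 36.8 CPM with Dnmt3a+/Δ BM, so that Dnmt3a+/+ replicate 1 lay at the low end and Dnmt3a+/Δ replicates 3 and 4 at the high end. The next lowest tumor was at least 62.0-fold above Dnmt3a+/Δ replicate 2, taking 3 counts in that tumor as the floor.

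Hoxd11, which with Hoxa11 patterns the forearm and kidney, was at 20.6, 32.5 and 30.0 CPM with Dnmt3a+/+ BM and at 15.8, 0.0204, 31.5 and 33.8 CPM with Dnmt3a+/Δ BM. Hoxd10 was at 10.3, 15.0 and 21.8 CPM and at 8.534, 0.0204, 16.8 and 20.8 CPM. The value of 0.0204 CPM in both genes is 1 count in Dnmt3a+/Δ replicate 2. Against it the next lowest tumor was 776-fold higher for Hoxd11 (95% exact interval 139 to 30720) and 419-fold higher for Hoxd10 (interval 74.7 to 16590).

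Hoxd9 was at 5.08, 3.51 and 4.96 CPM with Dnmt3a+/+ BM and at 4.02, 0.0611, 3.60 and 4.84 CPM with Dnmt3a+/Δ BM, the narrowest range of the 6 genes in the other tumors. Hoxd8 was at 4.46, 1.45 and 3.03 CPM and at 4.17, 0.244, 3.05 and 3.43 CPM. The distance of Dnmt3a+/Δ replicate 2 from the other tumors was smaller for these 2 genes than for Hoxd10, Hoxd11 and Hoxd13, with the next lowest tumor 57.5-fold higher for Hoxd9 (interval 19.4 to 281) and 5.94-fold higher for Hoxd8 (interval 3.24 to 11.9).

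**Figure D3:**
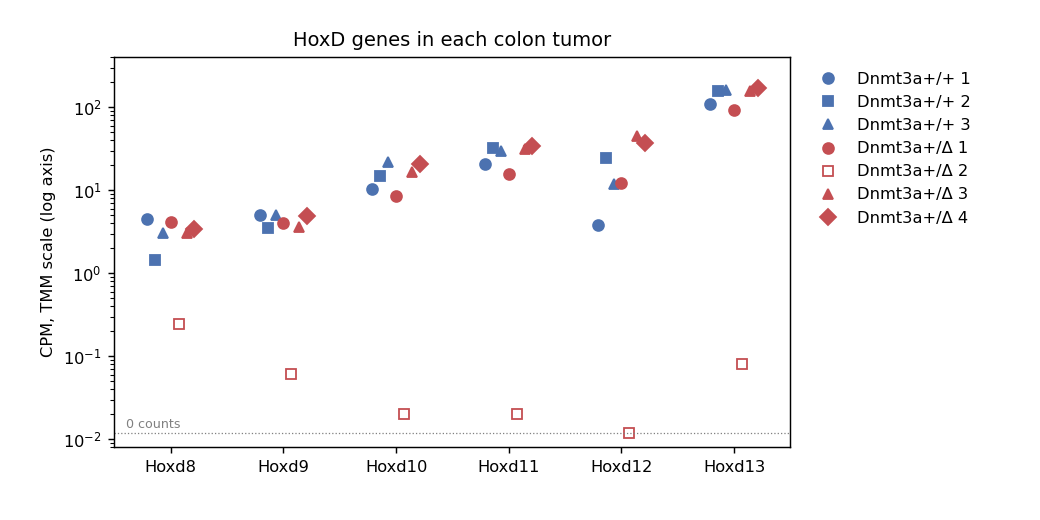
CPM of Hoxd8 to Hoxd13 (log axis) in each tumor, blue for Dnmt3a+/+ BM and red for Dnmt3a+/Δ BM, with open squares for Dnmt3a+/Δ replicate 2 and a dotted line for 0 counts. The 6 other tumors lie between 1.45 CPM (Hoxd8) and 169 CPM (Hoxd13), and the open squares between 0 and 0.244 CPM.

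Evx2, a homeobox gene 8.8 kb beyond Hoxd13, had the same pattern as the posterior HoxD genes, and the other neighbours were present in every tumor. Evx2 was at 6.42, 9.88 and 8.60 CPM with Dnmt3a+/+ BM and at 6.21, 0, 10.1 and 10.1 CPM with Dnmt3a+/Δ BM. Lnpk, 88.9 kb away on the same side, was at 11.0 CPM in Dnmt3a+/Δ replicate 2 and 20.1 to 27.4 CPM in the others. Mtx2, 60.7 kb past Hoxd1, was at 47.4 CPM there and 58.8 to 82.4 CPM in the others. Evx1, the counterpart of Evx2 beside HoxA, was at 14.8, 12.7 and 28.6 CPM and at 16.0, 26.7, 40.6 and 45.5 CPM, with Dnmt3a+/Δ replicate 2 inside the range of the others. These neighbours were looked up after the HoxD values were seen.

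HoxA was present in all 7 tumors, with its lowest summed level in Dnmt3a+/Δ replicate 2. Its summed level was 61.8, 64.9 and 82.2 CPM per kb with Dnmt3a+/+ BM and 53.1, 35.4, 66.5 and 82.3 CPM per kb with Dnmt3a+/Δ BM. Dnmt3a+/Δ replicate 2 was the lowest tumor in 10 of 11 HoxA genes, with the next lowest tumor 1.00 to 2.00-fold higher in each, and scaled by library size alone it was the lowest in 7. No HoxA gene had a range over 10-fold between tumors, the widest being 4.8-fold.

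Hoxa10, active in the uterus and the posterior axial skeleton, was the second HoxA gene by level per length. It was at 46.5, 46.1 and 58.9 CPM with Dnmt3a+/+ BM and at 38.5, 30.9, 53.2 and 57.4 CPM with Dnmt3a+/Δ BM. The groups overlapped, with a log2 fold change of −0.16 (SE 0.24, edgeR adjusted p = 0.842). Hoxa9 had means of 61.5 ± 12.2 (SD, n = 3) and 62.5 ± 15.5 CPM (SD, n = 4) and the smallest fold change of any tested member, 0.02 on the log2 scale (SE 0.23). Low HoxA levels were those of Hoxa4, at 0.244 to 0.811 CPM, and Hoxa6, at 0.183 to 0.499 CPM. Hoxa3 spans Hoxa4, Hoxa5 and Hoxa6 on the same strand, which makes the split of reads between these 4 genes uncertain.

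In HoxB, Hoxb13 lies apart from the other genes and behaved apart from them. Hoxb9 was at 15.7, 21.3 and 11.9 CPM with Dnmt3a+/+ BM and at 13.9, 35.5, 29.7 and 27.6 CPM with Dnmt3a+/Δ BM, and its highest value was in Dnmt3a+/Δ replicate 2, the tumor with 22 HoxD counts. The groups overlapped through Dnmt3a+/Δ replicate 1, and the log2 fold change of 0.71 (SE 0.35) had an edgeR adjusted p of 0.492.

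Hoxb3, Hoxb5, Hoxb6 and Hoxb7 shared their lowest and highest tumors. Hoxb6 was at 2.31, 0.859 and 3.64 CPM with Dnmt3a+/+ BM and at 3.79, 0.102, 5.44 and 6.68 CPM with Dnmt3a+/Δ BM. Hoxb7 was at 5.16, 1.25 and 4.89 CPM and at 6.09, 0.509, 6.20 and 7.81 CPM. For both genes Dnmt3a+/Δ replicate 2 was lowest, Dnmt3a+/+ replicate 2 next and Dnmt3a+/Δ replicate 4 highest.

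Hoxb3 was at 3.09, 0.687 and 2.29 CPM with Dnmt3a+/+ BM and at 3.34, 0.183, 3.25 and 3.76 CPM with Dnmt3a+/Δ BM. Hoxb5 was at 0.618, 0.187 and 1.07 CPM and at 0.649, 0.143, 1.46 and 1.97 CPM. They had the same lowest, next lowest and highest tumors as Hoxb6 and Hoxb7. The next lowest tumor was 8.43-fold above Dnmt3a+/Δ replicate 2 for Hoxb6 (95% exact interval 3.40 to 27.0), 3.75-fold for Hoxb3 (1.80 to 8.73), 2.45-fold for Hoxb7 (1.55 to 4.01) and 1.31-fold for Hoxb5 (0.477 to 3.94), so that the Hoxb5 values of these 2 tumors were not told apart by counting. Hoxb3 overlaps the antisense gene Hoxb3os, and Hoxb5 and Hoxb6 overlap Hoxb5os, each with at most 21 counts in any tumor. Hoxb4 did not have its lowest value there, at 0.815 CPM in a range of 0.484 to 2.76.

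Hoxb8, used in axial and blood cell development, was the only member with an unadjusted p below 0.05. It was at 0.296, 0.156 and 0.214 CPM with Dnmt3a+/+ BM and at 0.449, 0.367, 0.894 and 0.757 CPM with Dnmt3a+/Δ BM. The Dnmt3a+/Δ values all lay above the Dnmt3a+/+ values, on 7 to 11 counts in the control tumors and 18 to 44 in the others. The log2 fold change was 1.48 (SE 0.52, edgeR p = 0.0222, adjusted p = 0.406, exact permutation p = 0.0571, two-sided). It was 0.88 within experiment 18 and 1.56 between the 3 tumors of experiment 8, without a test.

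HoxC was close to silent. Counts summed over its 9 genes were 17, 19 and 0 with Dnmt3a+/+ BM and 90, 1, 0 and 9 with Dnmt3a+/Δ BM. Most were in Dnmt3a+/Δ replicate 1, with 32 counts for Hoxc8 and 25 for Hoxc13. Hoxc8 otherwise had 6, 12 and 0 counts with Dnmt3a+/+ BM and 0 in the 3 remaining Dnmt3a+/Δ tumors. A count of 0 over a library of this size allows up to 3 counts. Hoxc5 spans Hoxc6, Hoxc8 and Hoxc9 and overlaps part of Hoxc10 on the same strand, so that reads of these genes could have been split between them. The long noncoding RNA Hotair, which lies in HoxC, had no count in any tumor.

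The tumor with the least HoxD transcript was also the tumor with the least squamous marker RNA, and the tumor with the most HoxC counts was among those with the most. The squamous markers summed to 25280, 4539 and 5368 CPM with Dnmt3a+/+ BM and to 25900, 262, 5101 and 5157 CPM with Dnmt3a+/Δ BM. Among the other 6 tumors the order was not the same, since the 2 tumors with the most marker RNA, replicate 1 of each group, had the least HoxD, at 60.4 and 53.5 CPM per kb against 90.8 to 106. The part of squamous, stromal or vascular tissue in the HoxD values was not tested.

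**Figure D4:**
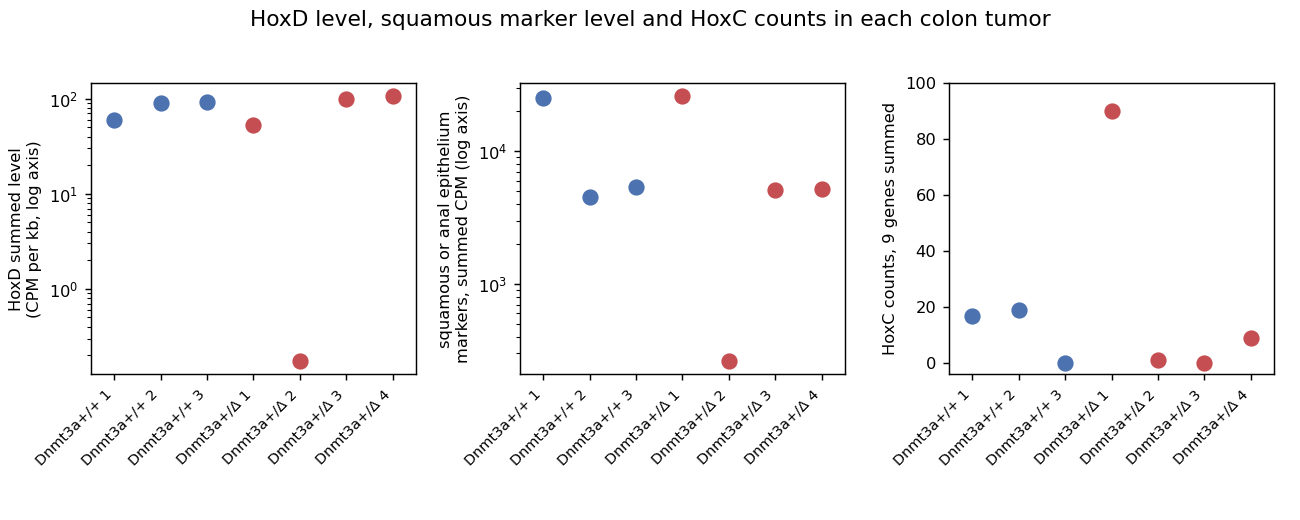
For each of the 7 tumors (blue, Dnmt3a+/+ BM, and red, Dnmt3a+/Δ BM), the HoxD summed level in CPM per kb (log axis), the summed CPM of 8 squamous or anal epithelium markers (log axis) and the HoxC counts. Dnmt3a+/Δ replicate 2 is lowest in the first and second panels, at 0.174 CPM per kb and 262 CPM, and Dnmt3a+/Δ replicate 1 is highest in the third, at 90 counts.

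Whether the graft genotype went with a different Hox level was asked in a fit over all 15810 genes tested. None of the 26 tested Hox genes was called (edgeR quasi-likelihood test, adjusted p below 0.05 and an absolute log2 fold change above 1), beside a background of 0% over all genes. The lowest adjusted p was 0.406 among the Hox genes and 0.361 over all genes, and DESeq2 called 0 Hox genes and 300 genes in all. At an unadjusted p below 0.05 there was 1 Hox gene of 26 (3.85%), against a background of 11.0% (5.83% higher and 5.20% lower). The groups did not overlap for 3 Hox genes (Hoxb2, Hoxb8 and Hoxb13), against a background of 12.4%. A share near or below the background is no result about the Hox genes.

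Log2 fold changes had a median of −0.08 over the 26 Hox genes and 0.003 over all genes, with 12 Hox genes higher and 14 lower with Dnmt3a+/Δ BM. By cluster the median was −0.16 for HoxA (3 higher, 8 lower), 0.71 for HoxB (8 higher, 1 lower) and −0.45 for HoxD (1 higher, 5 lower). Without Dnmt3a+/Δ replicate 2 the HoxA and HoxD medians went to 0.02 and −0.002, and the HoxB median was 0.86. By class the median over all 7 tumors was −0.36 for the 5 anterior genes tested, 0.38 for the 10 central and −0.45 for the 11 posterior. The posterior class includes Hoxd9 to Hoxd13, which were near 0 in Dnmt3a+/Δ replicate 2. Without that tumor their log2 fold changes were −0.095, 0.00028, −0.004, 1.28 and −0.007 in that order. The middle value of the posterior class was then 0.00028 (Hoxd10) and that of the anterior class −0.11 (Hoxa2). The central median lay between 0.53 (Hoxa6) and 0.79 (Hoxb4). The single HoxB gene that was lower was Hoxb13. The difference in fold change between experiments did not pass the test for any of the 26 genes (lowest interaction adjusted p = 1.00, with 0 at an unadjusted p below 0.05).

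Hox levels spanned a wide range between tumors. In 10 of 26 (38.5%) the highest tumor was over 10-fold above the lowest, against a background of 10.9% of all genes tested. These were Hoxb3, Hoxb5, Hoxb6, Hoxb7 and the 6 HoxD genes, which share 2 clusters, and in all 10 the lowest tumor was Dnmt3a+/Δ replicate 2. In 5 of them that tumor was over 10-fold below the next lowest, beside 0.822% of all genes.

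**Figure D5:**
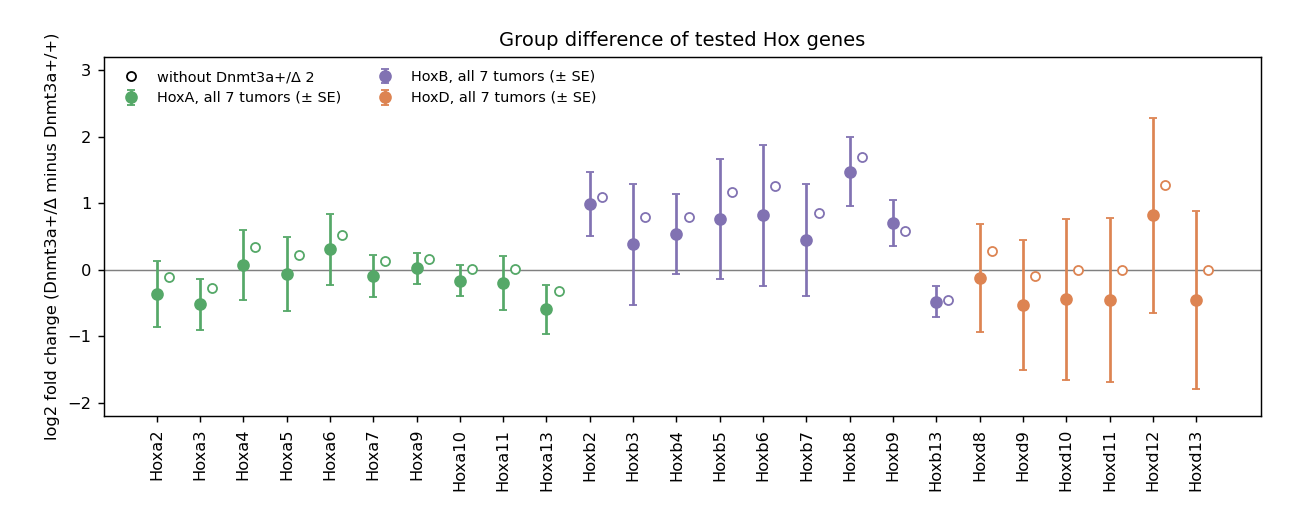
Log2 fold change (Dnmt3a+/Δ minus Dnmt3a+/+) of tested Hox genes, coloured by cluster, with bars of 1 SE from the edgeR fit on 7 tumors, and open circles for the fit without Dnmt3a+/Δ replicate 2. The SE of the HoxD genes runs from 0.81 to 1.47, and no gene was called.

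Hox proteins bind DNA together with TALE homeodomain cofactors of the Meis, Pbx and Pknox families. All 9 of these genes were tested and 0 were called by edgeR or DESeq2, with a median log2 fold change of 0.33. By edgeR, 2 (22.2%) were higher at an unadjusted p below 0.05 (Pbx4, 1.68, and Pknox2, 1.83), beside 5.83% of all genes. The lists of cofactors and regulators were chosen with earlier results of these data known, so their shares are description only. Meis1, the best known cofactor of posterior Hox proteins, was at 20.9, 6.10 and 8.93 CPM with Dnmt3a+/+ BM and at 35.2, 0.570, 12.8 and 11.8 CPM with Dnmt3a+/Δ BM. It too was lowest in Dnmt3a+/Δ replicate 2 and highest in replicate 1 of each group.

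Polycomb and trithorax genes, which hold Hox clusters silent or active, gave 0 of 17 called by edgeR or DESeq2, with a median of 0.22. By edgeR, 5 (29.4%) were higher at an unadjusted p below 0.05, beside 5.83% of all genes. This list too was chosen with earlier results known, and its share is description only. Among the 5 were Ezh2 (0.61), Suz12 (0.38), Cbx2 (0.88) and Kmt2a (0.36). Cbx2, a chromodomain subunit of Polycomb, was at 8.30, 7.37 and 6.58 CPM with Dnmt3a+/+ BM and at 10.3, 18.5, 13.5 and 12.2 CPM with Dnmt3a+/Δ BM, and the groups did not overlap.

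Of 19 other regulators of gut position, 17 were matched in the table and 14 tested. edgeR called 0 and DESeq2 called 3 (Gdf11, Onecut2 and Cdx1), where DESeq2 called 300 of 24352 genes in all. By edgeR, 4 (28.6%) were higher and 1 was lower at an unadjusted p below 0.05, beside 5.83% and 5.20% of all genes, and the median was 0.34. These shares are again description only, for a list chosen with earlier results known. Gdf11, a signal that sets the time of posterior Hox activation, was at 12.2, 5.82 and 9.15 CPM with Dnmt3a+/+ BM and at 20.6, 70.4, 51.1 and 41.9 CPM with Dnmt3a+/Δ BM (log2 fold change 2.35, SE 0.45, edgeR adjusted p = 0.361). Onecut2 was at 0.752, 3.59 and 1.38 CPM and at 9.21, 22.4, 8.94 and 15.9 CPM (2.87, SE 0.63, edgeR adjusted p = 0.361). In both genes the lowest Dnmt3a+/Δ value lay above the highest Dnmt3a+/+ value, and DESeq2 gave an adjusted p of 0.000113 for Gdf11 and 0.000338 for Onecut2.

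The caudal homeobox genes Cdx1 and Cdx2, which activate intestinal genes, had fold changes of opposite sign. Cdx1 was at 224, 292 and 246 CPM with Dnmt3a+/+ BM and at 116, 63.5, 147 and 132 CPM with Dnmt3a+/Δ BM, a log2 fold change of −1.15 (SE 0.28, edgeR adjusted p = 0.361, DESeq2 adjusted p = 0.0324). Cdx2 was at 10.6, 9.40 and 11.2 CPM and at 10.2, 21.4, 17.6 and 22.8 CPM, a log2 fold change of 0.79 (SE 0.29, edgeR adjusted p = 0.420). Cyp26b1, which breaks down retinoic acid, was the remaining gene at an unadjusted p below 0.05, with a log2 fold change of 1.21. Sox2, a gene of foregut and squamous epithelium, was at 40.9, 7.60 and 17.0 CPM and at 49.3, 0.0204, 14.1 and 16.2 CPM, again with the lowest value in Dnmt3a+/Δ replicate 2 and the highest in replicate 1 of each group.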

How the data were processed

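Whole colon tumors from 7 mice were profiled by poly(A) RNA-seq with a directional kit. Per the labels and methods, the authors trimmed reads with Trimmomatic, aligned them to mm10 with STAR and deposited RSEM gene-level estimated counts, of which 100% were whole numbers and which were used as such. The strand setting of RSEM and the annotation release are not given in the sources used here. Gene symbols and exon lengths were matched for 42462 of 43346 identifiers (GENCODE M21, GRCm38), and the rest held 0.104% of counts. Totals of 38472738 to 64314999 counts set the precision, and intervals cover counting error only.

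Counts were scaled by TMM and tested with edgeR 4.0.16 (filterByExpr, quasi-likelihood, Benjamini-Hochberg over 15810 genes) on all 7 tumors without covariates, after a test on simulated data. The study's thresholds were kept. DESeq2 1.42.0, other scalings, filters, an experiment covariate, a replicate block and leaving out each tumor were alternatives. Single genes also had an exact permutation test over 35 splits, with a smallest p of 0.0286. Log2 levels used a pseudocount of 0.1.

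Values in every tumor are given for tested Hox genes with an unadjusted p below 0.05 or a range over 10-fold, the 2 most abundant members of each cluster and paralog 13 genes, 17 genes in all. Members, gene lists and markers were chosen with earlier results of these data known. Hoxd4, Hoxb2, Hoxb4, Hoxa9 and the neighbours of the clusters were named after their values were seen. Prac1 and Prac2 were not analysed here, and a few other genes are neither named nor drawn.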

Additional observations from a re-analysis of the deposited data

Results flagged for a closer look

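In 12 of 35 values examined for the 4 Dnmt3a+/Δ tumors (26 tested Hox genes and 9 sums or shares), 1 tumor lay far from the other 3, and in all 12 it was Dnmt3a+/Δ replicate 2. A rate of 0.05 per value would give about 1.75 such values if they were independent and normally distributed. The 12 are not independent, since the genes share clusters and the sums share genes. That tumor was also the lowest in 25.3% and the highest in 24.7% of all genes tested, so no chance rate for the Hox genes follows.

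For 8 single genes the value of that tumor was low, at 0.183 CPM for Hoxb3, 0.102 CPM for Hoxb6, 0.509 CPM for Hoxb7, 0.244 CPM for Hoxd8, 0.0611 CPM for Hoxd9, 0.0204 CPM for Hoxd10, 0.0204 CPM for Hoxd11 and 0.0815 CPM for Hoxd13. Hoxd12, with 0 counts there, did not meet the criterion because the other 3 tumors were themselves spread from 12.3 to 45.4 CPM. The HoxD summed level was 0.174 CPM per kb. The share of HoxD in the summed Hox level was 0.109% and that of HoxB was 77.7%, the only high value of the 12. The mean log2 level of posterior genes exceeded that of anterior genes by 1.71 in that tumor and by 3.22 to 3.50 in the other 3 Dnmt3a+/Δ tumors. This mean weighs each gene equally and includes the HoxD genes near 0. By summed level the posterior share of that tumor was not low, at 93.7% against 87.7 to 91.1% in the other 3.

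The same tumor had the lowest squamous marker sum (262 CPM) and the highest fibroblast, endothelial and leukocyte sums of the 7. Their part in these values was not tested.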

How the results depend on the processing

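No Hox gene was called under any of the 16 alternatives, and DESeq2 alone called genes at all (300, none of them Hox). The count of Hox genes at an unadjusted p below 0.05 was 2 with library size only, 2 with experiment as a covariate and 0 in experiment 18 alone, and ran from 0 to 2 when each tumor was left out in turn, with 0 without Dnmt3a+/+ replicate 3. The median Hox log2 fold change ran from −0.23 to 0.19 in those fits, and library size alone moved the median of all genes by 0.21. Same-numbered tumors of the 2 groups share the experiment number, but no label says that a number marks a shared animal or batch, and their deviations correlated at 0.57, 0.07 and −0.04. A replicate block on these numbers gave 0 genes called and 1 Hox gene at an unadjusted p below 0.05, with a Hox median of −0.33.

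Signs changed for Hoxa10 (0.039) and Hoxd8 (0.042) with library size only, Hoxd12 (−0.19) with experiment as a covariate, and Hoxb3 (−0.33), Hoxb6 (−0.32) and Hoxb7 (−0.20) with the replicate block. In experiment 18 alone they were Hoxb3 (−0.10), Hoxb5 (−0.012) and Hoxd12 (−1.21). Leaving out single tumors gave ranges of −0.46 to 0.28 for Hoxd8, −0.035 to 0.83 for Hoxb3, −0.30 to 0.0078 for Hoxa10 and −0.89 to 0.00028 for Hoxd10. The causes were not tested. With posterior taken as paralogs 10 to 13 the posterior share averaged 86.0% with Dnmt3a+/+ BM and 80.5% with Dnmt3a+/Δ BM. A pseudocount of 1 put the mean log2 difference of posterior from anterior genes at 2.20 and 1.99. The HoxD share with Dnmt3a+/Δ BM was 22.8% ± 15.3 (SD, n = 4) and rests on the 1 tumor near 0. The interaction, the library-size order of HoxA and the neighbouring genes were added after seeing the data.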

Other observations

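Noncoding RNAs of the clusters were counted as separate genes. Hottip, transcribed beside Hoxa13, was at 9.83, 11.7 and 9.48 CPM with Dnmt3a+/+ BM and at 5.34, 3.02, 6.46 and 6.002 CPM with Dnmt3a+/Δ BM. Every Dnmt3a+/Δ tumor was below every Dnmt3a+/+ tumor, and the log2 fold change was −0.99 (SE 0.31, edgeR adjusted p = 0.383). Hoxa11os, antisense to Hoxa11, was at 36.9, 44.6 and 65.2 CPM and at 25.6, 15.4, 46.6 and 67.3 CPM, with overlapping groups (log2 fold change −0.34, SE 0.48, edgeR adjusted p = 0.839). Its level exceeded the 5.60 to 16.9 CPM of Hoxa11 in every tumor on the CPM scale, which is not divided by length, and reads of the pair can be told apart only if strand was used in counting. Hoxd3os1, in the anterior part of HoxD, had 9, 2 and 1 counts with Dnmt3a+/+ BM and 20, 0, 9 and 7 counts with Dnmt3a+/Δ BM, with 0 in Dnmt3a+/Δ replicate 2.

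Among marker lists, endothelial genes stood at a median of 1.72 on the log2 scale, and of 1.40 without Dnmt3a+/Δ replicate 2. With Dnmt3a+/Δ BM 7 of 7 were higher, 5 of them (71.4%) at an unadjusted edgeR p below 0.05, beside 5.83% of all genes. None was called by edgeR and 4 were by DESeq2 (Pecam1, Cdh5, Kdr and Flt1), which called 300 of 24352 genes in all. The marker lists were chosen with earlier results of these data known. Upk1a, the 1 urothelial marker called by DESeq2, had a log2 fold change of −1.76 (SE 0.337, edgeR adjusted p = 0.361, DESeq2 adjusted p = 0.00027). Upk3a of the same list went the other way, at 2.04 (SE 0.732, edgeR adjusted p = 0.407, DESeq2 adjusted p = 0.083). The neural crest receptor Ret was at 4.97, 5.42 and 8.23 CPM with Dnmt3a+/+ BM and at 11.9, 24.2, 29.6 and 35.2 CPM with Dnmt3a+/Δ BM, a log2 fold change of 2.02 (SE 0.40, edgeR adjusted p = 0.361, DESeq2 adjusted p = 0.000356).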
